A study of Mus musculus with 10 samples.

Results

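Small RNA was compared between primordial germ cell-like cells (mPGCLCs) and the non-PGCLC cells that surrounded them in embryoid bodies (EBs), both made from the mouse embryonic stem cell (mESC) line E14. The members are all 4 libraries whose labels name E14, 2 of Day 6 mPGCLCs and 2 of Day 6 non-PGCLCs, out of 10 libraries in the series. E14 is a reporter-free male line of the 129/Ola strain. Per the study's methods, mESCs were taken through epiblast-like cells into EBs grown with BMP, and E14 mPGCLCs were sorted as Ssea1-positive and Cd61-positive cells, with surrounding EB cells sorted through a gate of their own as the non-PGCLC group. The labels of all samples instead give the gate of another line (Stella-GFP positive, Esg1-tdTomato negative), which a line without a reporter cannot have carried. E14 is thus 1 line, and the cell types in the non-PGCLC group are not given. The BG5 line, an mESC line of mixed background with a Blimp1-GFP reporter that was sorted on Ssea1 and that reporter, gave 2 mPGCLC and 2 non-PGCLC libraries. Its levels are described only where the difference between lines was tested. Its libraries also enter shared steps of the E14 tests, such as the filter on low counts and the estimate of spread. Another 2 non-PGCLC libraries, of the SGET line, enter only such shared steps. Germ cell mRNAs are outside the measured size range, so the labels could be checked only against miRNAs that mark cell types.

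miRNAs are short regulatory RNAs cut by Drosha and Dicer from hairpin precursors and loaded into Argonaute proteins. Each hairpin can give a 5p and a 3p arm, and the seed, bases 2 to 8 of the mature arm, does most of the pairing with target mRNAs. In mouse, the miR-290 cluster is the leading miRNA locus of pluripotent cells and early germ cells, whereas miR-199a, miR-214, miR-100 and miR-125b are known from mesenchymal and differentiating cells.

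The arms below are those that fell in E14 mPGCLCs with reads scaled to the library total, printed 5′ to 3′ from RefSeq (GRCm38.p6) with the seed in capitals, because the result turns on them and on the seeds that they share or do not share with arms that stayed abundant.
miR-199a-3p and miR-199b-3p: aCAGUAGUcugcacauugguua
miR-214-3p: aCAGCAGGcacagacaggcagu
miR-125b-5p: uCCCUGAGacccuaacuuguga
miR-351-5p: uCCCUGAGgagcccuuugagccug
miR-100-5p: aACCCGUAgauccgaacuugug
miR-483-3p: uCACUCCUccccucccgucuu
miR-483-5p: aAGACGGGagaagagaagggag
miR-335-5p: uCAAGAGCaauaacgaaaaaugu

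Next come relatives that carry the same seed as a called arm, shown to compare with it, 2 arms that rose with another scaling (miR-26b-5p and miR-30a-5p), and the leading arms of the miR-290 cluster.
miR-125a-5p, seed of miR-125b-5p and miR-351-5p: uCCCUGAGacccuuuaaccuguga
miR-99b-5p, seed of miR-100-5p: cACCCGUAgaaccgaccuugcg
miR-26b-5p: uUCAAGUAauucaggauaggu
miR-26a-5p, seed of miR-26b-5p: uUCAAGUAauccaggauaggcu
miR-30a-5p: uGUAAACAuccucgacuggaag
miR-292a-5p: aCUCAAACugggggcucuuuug
miR-290a-5p, seed of miR-292a-5p: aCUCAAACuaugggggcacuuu
miR-294-3p: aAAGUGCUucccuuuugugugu
miR-295-3p, seed of miR-294-3p: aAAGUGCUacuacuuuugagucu
miR-293-3p: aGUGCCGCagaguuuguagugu

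The files held 8274092 and 8046414 reads for mPGCLC replicates 1 and 2, and 7421061 and 12899662 reads for non-PGCLC replicates 1 and 2. Levels are in RPM, reads scaled to a common library total, and 3 reads, taken as the floor, were worth between 0.233 and 0.404 RPM in these libraries. Of 775 arms with a read in any library of the series, 619 had one in E14. The filter on low counts ran over all 10 libraries and kept 569 arms, some of which had no read in E14. Many arms were carried by 1 of 2 replicates: 70 of the 569 arms had at least 50 reads in one mPGCLC library and at most 3 in the other, and 113 did so in the non-PGCLC libraries. Nothing in the labels says how far the duplicates were separate cultures, so p-values measure the spread between these libraries, which may be technical. Reads are PCR products without molecular identifiers, and intervals on counts cover counting error only.

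E14 mPGCLCs held 8 miRNA arms that fell below the non-PGCLC level and no arm that rose, out of 569 tested (edgeR quasi-likelihood test, Benjamini-Hochberg adjusted p under 0.05, 1.41% of all arms called). At an unadjusted p under 0.05, 32 arms were higher and 32 lower, and DESeq2 called 20 higher (3.51%) and 38 lower (6.68%), 10.2% of the arms. With the replicate number as a block, edgeR called 35 arms, 15 higher and 20 lower. With TMM scaling, which sets the bulk of the arms to no change, 16 arms were called (2.81%), 3 higher (0.527%) and 13 lower (2.28%), and they include all 8. All 16 arms showed no overlap between the 2 mPGCLC and the 2 non-PGCLC libraries. Across all tested arms, groups that did not overlap were common, with 24.8% of arms higher and 14.4% lower. Fitted on the 4 E14 libraries alone, which left 433 arms to test, 4 of the 8 calls were lost, with edgeR adjusted p = 0.0784 for miR-214-3p, 0.06 for miR-483-3p, 0.0566 for miR-100-5p and 0.0566 for miR-351-5p. In that fit the log2 change stayed at -6.21 for miR-214-3p, -3.81 for miR-483-3p and -2.12 for miR-351-5p. In sorted bulk material, fewer cells of a type and less RNA per cell cannot be told apart.

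**Figure D1:**
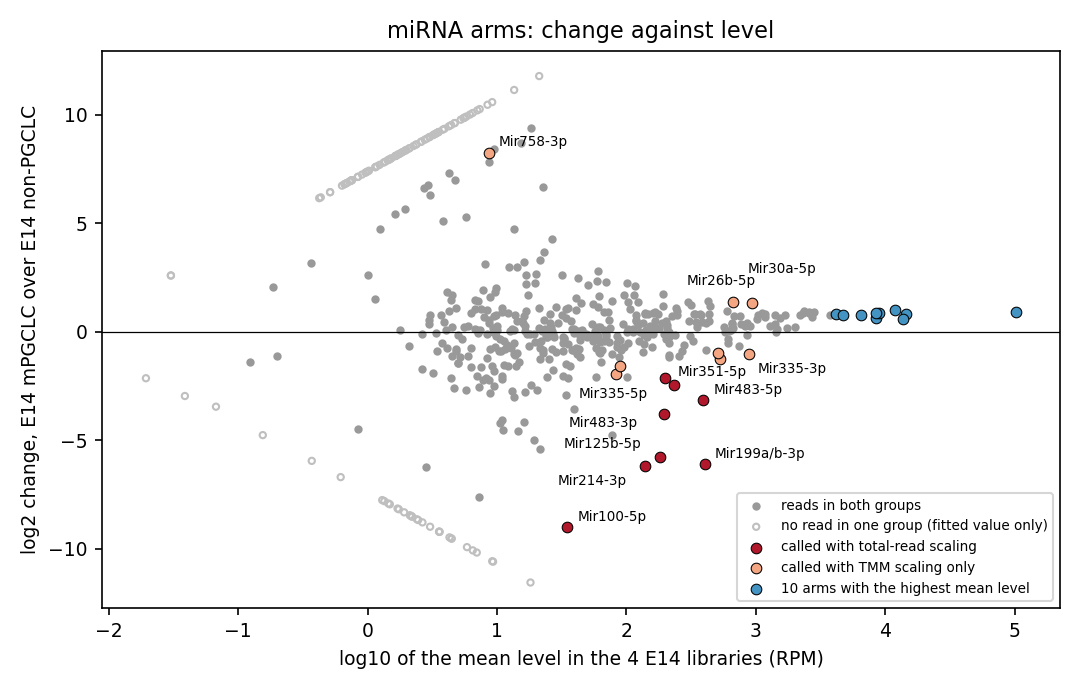
Change of each of the tested miRNA arms between E14 mPGCLCs and E14 non-PGCLCs (log2, total-read scaling) against its mean level in the 4 libraries (log10 RPM). The 8 arms called with total-read scaling all lie below 0, the 10 most abundant arms lie close together above 0, and open circles are arms without a read in one group, whose fitted change depends on the prior count.

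Among the arms that fell were miRNAs of mesenchymal cells. miR-199a-3p, which cannot be told apart from miR-199b-3p, stood at 10.9 and 12.1 RPM in the mPGCLC libraries against 756 and 831 RPM in the non-PGCLC libraries. The groups were far apart and each was tight, with means of 11.5 ± 0.833 and 794 ± 52.9 RPM (SD, n = 2), a 69.2-fold lower level in mPGCLCs (log2 change -6.11 ± 0.47 SE, edgeR adjusted p = 1.5e-08). miR-214-3p, made from the same Dnm3os transcript as Mir199a-2, held 0.483 and 6.96 RPM in mPGCLCs against 260 and 291 RPM in non-PGCLCs (log2 change -6.21 ± 0.87 SE, edgeR adjusted p = 0.000106). Its mPGCLC replicate 1 value rests on 4 reads and replicate 2 on 56, and the log2 change was -9.12 without mPGCLC replicate 2 and -5.30 without replicate 1. None of those reads was the RefSeq sequence printed above, which made up 24.5% of the arm's reads in non-PGCLCs, and for miR-199a/b-3p the RefSeq sequence made up 20.3% of reads in mPGCLCs and 49.9% in non-PGCLCs. The hairpins lie in exons of Dnm3os at chr1:162217814-162217923 (Mir199a-2) and chr1:162223368-162223477 (Mir214), both on the plus strand of GRCm38, with further copies of the miR-199 arm at chr9:21496495-21496564 (Mir199a-1) and chr2:32318460-32318569 (Mir199b).

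The other arms of mesenchymal miRNAs did not pass the test. Over the list of 7 mesenchyme genes, 8 arms were tested and 2 fell, beside 1.41% of all arms. At an unadjusted p under 0.05, 5 were lower (32 of all 569 arms), and DESeq2 called 2 lower (6.68% of all arms). The 8 arms had a median log2 change of -4.84 (-3.85 with arms that had no read in one group set to their bound) beside 0.131 over all arms. miR-143-3p, the most abundant arm of that list in mPGCLCs, stood at 530 and 628 RPM in mPGCLCs and 611 and 550 RPM in non-PGCLCs. The 2 groups overlapped for it. miR-199a-5p, the other strand of the miR-199a hairpins, held 12.2 and 0 RPM in mPGCLCs against 34.5 and 111.5 RPM and was not called (edgeR adjusted p = 0.24). The summed list ran from 589 to 683 RPM in mPGCLCs and from 1685 to 1817 RPM in non-PGCLCs.

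The second set that fell was the miR-100 and miR-125b pair, whose shared host transcripts lie on chromosome 9 and whose relatives miR-99b and miR-125a lie together on chromosome 17. miR-125b-5p was at 3.38 and 9.69 RPM in mPGCLCs against 311 and 398 RPM in non-PGCLCs, a 54.3-fold lower mean (log2 change -5.76 ± 0.57 SE, edgeR adjusted p = 6.5e-07). The log2 change was -5.19 without mPGCLC replicate 1 and -6.71 without mPGCLC replicate 2. It is read from Mir125b-1 (chr9:41581926-41582002, plus strand, in an exon of Gm28119) and Mir125b-2 (chr16:77646273-77646343, plus strand, in an intron of Mir99ahg). miR-100-5p was represented by 1 read in each mPGCLC library and by 575 and 794 reads in the non-PGCLC libraries. Over the summed reads of each group, the non-PGCLC level was 550 times that of mPGCLCs, with an exact 95% counting interval of 152 to 4544 (edgeR adjusted p = 0.00698). The hairpin lies at chr9:41531425-41531504 on the plus strand, in introns of 3110039I08Rik and Gm49317. The miR-100-5p call was lost when either non-PGCLC library was left out, and with TMM scaling when any of the 4 libraries was (edgeR adjusted p from 0.157 to 0.272).

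Their relatives on chromosome 17 did not pass the test. miR-125a-5p, which has the miR-125b seed, was at 1614 and 1429 RPM in mPGCLCs and 1497 and 1270 RPM in non-PGCLCs. miR-99b-5p, which has the miR-100 seed, was at 564 and 658 RPM in mPGCLCs and 589 and 473 RPM in non-PGCLCs. Both overlapped between groups. Since they exceed miR-125b and miR-100 in every library, the summed seed families moved little: CCCUGAG totalled 1706 and 1499 RPM in mPGCLCs against 2097 and 2028 RPM (log2 change -0.36 ± 0.32 SE, edgeR adjusted p = 0.663), and ACCCGUA totalled 564 and 658 RPM against 696 and 535 RPM (log2 change -0.01 ± 0.38 SE, edgeR adjusted p = 1). Over the list of miR-99, miR-100 and miR-125 genes, 2 of 8 tested arms fell, beside 1.41% of all arms, and none was called higher. At an unadjusted p under 0.05, 4 were lower (32 of all 569 arms), and DESeq2 called 4 lower (6.68% of all arms).

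Both arms of miR-483 fell. Mir483 lies in an intron of Igf2, the imprinted gene of a fetal growth factor (chr7:142654924-142654996, minus strand). miR-483-5p stood at 96.1 and 62.5 RPM in mPGCLCs against 613 and 790 RPM in non-PGCLCs, an 8.85-fold lower mean (log2 change -3.15 ± 0.49 SE, edgeR adjusted p = 0.00037). miR-483-3p stood at 40.7 and 11.7 RPM against 282 and 454 RPM, a 14-fold lower mean (log2 change -3.81 ± 0.65 SE, edgeR adjusted p = 0.001), with a log2 change of -4.98 without mPGCLC replicate 1 and -3.17 without replicate 2. The most frequent miR-483-3p read, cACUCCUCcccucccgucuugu with bases 2 to 8 in capitals, made up 70.5% of the arm's reads in mPGCLCs and 61.5% in non-PGCLCs. It differs in its first base from the RefSeq arm printed above, so bases 2 to 8 of most molecules were not those of the RefSeq form in either group.

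miR-335, in an intron of the imprinted gene Mest (chr6:30741299-30741396, plus strand), also fell. miR-335-5p was at 65.9 and 77.2 RPM in mPGCLCs against 346 and 450 RPM in non-PGCLCs, a 5.56-fold lower mean (log2 change -2.48 ± 0.44 SE, edgeR adjusted p = 0.00164). miR-335-3p, the more abundant arm, was at 581 and 588 RPM against 1129 and 1252 RPM, a 2.04-fold lower mean whose call depends on scaling (edgeR adjusted p = 0.24 with total reads and 0.0142 with TMM).

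On the X chromosome, miR-351-5p and miR-322-3p come from hairpins that lie close together on the minus strand (chrX:53053255-53053353 and chrX:53054255-53054349), a locus known from differentiating cells and muscle. miR-351-5p was at 88.8 and 60.5 RPM in mPGCLCs against 288 and 360 RPM in non-PGCLCs (log2 change -2.12 ± 0.49 SE, edgeR adjusted p = 0.0225). miR-322-3p was at 26.1 and 41.9 RPM against 109 and 154 RPM, and passed with TMM but not with total-read scaling (edgeR adjusted p = 0.125 with total reads and 0.0372 with TMM). With total-read scaling, the miR-351-5p call was lost in each of the 4 fits that left out 1 library, whereas 2 of 4 such fits kept it with TMM. It was also lost with reads that match the hairpin exactly (edgeR adjusted p = 0.267) and with reads of 20 to 24 nt (log2 change -1.79, edgeR adjusted p = 0.262).

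**Figure D2:**
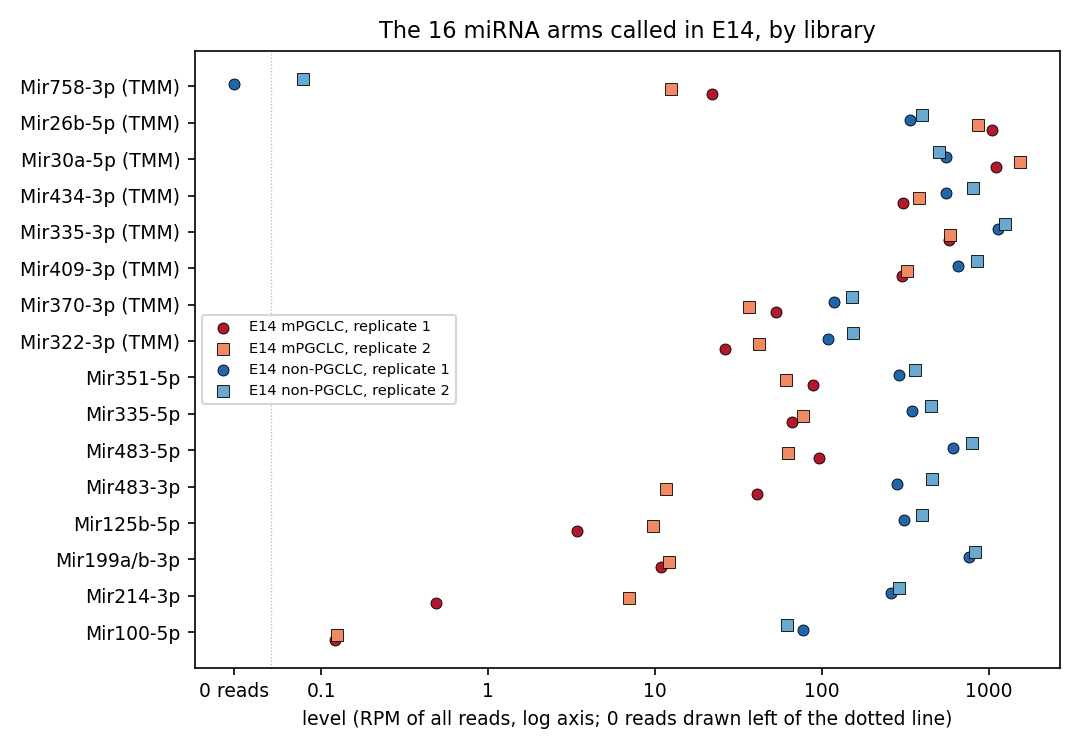
Level of the 16 called miRNA arms in each E14 library (RPM, log axis). Arms marked TMM passed with TMM but not with total-read scaling. For the lowest 6 arms in the plot the mPGCLC points lie far to the left of the non-PGCLC points, while those of miR-434-3p and miR-335-3p lie closer together. Labels give gene names, so that Mir335-5p stands for miR-335-5p.

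Both sides of the imprinted Dlk1-Dio3 region on chromosome 12 held arms that edgeR called with TMM but not with total-read scaling. This region carries one of the largest miRNA clusters of the mouse genome, transcribed from the maternal copy. On the Mirg side, miR-409-3p, in an intron of Mirg, was at 303 and 321 RPM in mPGCLCs against 654 and 850 RPM in non-PGCLCs (2.41-fold lower, edgeR adjusted p = 0.125 with total reads and 0.00725 with TMM). On the Rtl1 side, miR-434-3p was at 305 and 380 RPM against 555 and 799 RPM (edgeR adjusted p = 0.24 and 0.0447), and miR-370-3p, in an intron of Rian, at 53.3 and 36.4 RPM against 118 and 152 RPM (edgeR adjusted p = 0.204 and 0.0469). Of 58 tested Mirg-side arms, 40 had a log2 change below 0 and 13 above it (221 and 311 of all 569 arms), with a median of -0.68. The 22 Rtl1-side arms had 13 below 0 and 7 above, with a median of -0.44. These medians stand beside 0.131 over all arms and kept their sign under each scaling tried. With total reads, none of these arms was called. At an unadjusted p under 0.05, 5 Mirg-side arms were lower and 4 higher, and 6 Rtl1-side arms lower and none higher, while DESeq2 called 10 lower and 3 higher on the Mirg side and 7 lower on the Rtl1 side, beside 6.68% of all arms lower and 3.51% higher. With TMM, 1 of the 58 Mirg-side arms fell and 1 (miR-758-3p) rose, and 2 of the 22 Rtl1-side arms fell, beside 2.28% of all arms lower and 0.527% higher. With TMM factors set without the miR-290 cluster, miR-409-3p kept its call (edgeR adjusted p = 0.011), and miR-434-3p (edgeR adjusted p = 0.0695) and miR-370-3p (edgeR adjusted p = 0.0566) did not. Summed levels were 3448 and 3239 RPM against 4984 and 5830 RPM for the Mirg side, and 1130 and 1074 RPM against 1921 and 2317 RPM for the Rtl1 side. Neither sum overlapped between the groups.

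The 3 rises with TMM scaling were miR-30a-5p, miR-26b-5p and miR-758-3p. miR-30a-5p was at 1113 and 1548 RPM in mPGCLCs against 552 and 501 RPM in non-PGCLCs, a 2.53-fold higher mean (log2 change with total reads 1.34 ± 0.41 SE, edgeR adjusted p = 0.139 with total reads and 0.0424 with TMM). miR-26b-5p, from an intron of Ctdsp1 (chr1:74394310-74394394, plus strand), was at 1051 and 864 RPM against 338 and 395 RPM, a 2.61-fold higher mean (edgeR adjusted p = 0.125 and 0.0447). miR-758-3p, of the Mirg side, had 182 and 100 reads in mPGCLCs against 0 and 1 read in non-PGCLCs. Its summed level was 351 times that of non-PGCLCs, with an exact 95% counting interval of 62.5 to 13917 (edgeR adjusted p = 0.058 and 0.0434). With TMM scaling, none of these 3 rises kept its call in any of the 4 fits that left out 1 library, and with TMM factors set without the miR-290 cluster only miR-30a-5p kept it (edgeR adjusted p = 0.0442, and 0.0543 for each of the others).

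The most abundant arms stood higher in E14 mPGCLCs, and their calls depended on the fit. The 10 with the highest mean level held between 61.2% and 72.7% of the miRNA reads of a library. All 10 were higher in both mPGCLC libraries than in both non-PGCLC libraries, beside 24.8% of all arms. None was called with total-read or TMM scaling or by DESeq2, while without the filter on low counts miR-292a-5p (edgeR adjusted p = 0.000768) and miR-290a-5p (edgeR adjusted p = 0.0347) passed. With the replicate number as a block, 7 of the 10 were called. miR-292a-5p alone accounted for 150299.6 and 117837 RPM in mPGCLCs against 87003 and 56904 RPM in non-PGCLCs (log2 change 0.90 ± 0.31 SE, edgeR adjusted p = 0.24). miR-292-3p followed at 18294 and 18803 RPM against 11581 and 9621 RPM, then miR-92a-3p, as read from Mir92-1 of the miR-17-92 cluster, at 17086 and 15922 RPM against 12605 and 9101 RPM, and miR-290a-5p at 16735 and 15217 RPM against 8830 and 7097 RPM. Their mPGCLC means were 1.52 to 2.01 times the non-PGCLC means. The other members of this set were miR-293-3p, miR-294-3p, miR-295-3p, miR-92a-3p as read from Mir92-2, and miR-182-5p and miR-183-5p, of a cluster on chromosome 6 known from sensory and germ cells. Scaled to miRNA reads in place of all reads, miR-182-5p (log2 change -0.066) and miR-92a-3p from Mir92-1 (log2 change -0.080) turned slightly lower.

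As clusters, the miR-290 hairpins, which stand side by side on chromosome 7 from chr7:3218626 (Mir290a) to chr7:3220841 (Mir295), summed to 22.4% and 19.6% of all reads in mPGCLCs and to 13.5% and 9.32% in non-PGCLCs. Of miRNA reads they made up 65.0% and 62.1% against 58.6% and 52.1%, a mean 1.15 times that of non-PGCLCs, and scaled to miRNA reads the log2 change of miR-292a-5p was 0.22 (edgeR adjusted p = 0.694). The list had 14 tested arms, 13 with a log2 change above 0 (311 of all 569) and a median of 0.79 (0.131 over all arms). At an unadjusted p under 0.05, 9 were higher (32 of all 569 arms) and none lower. None was called by edgeR with total-read or TMM scaling or by DESeq2, while some were called with the replicate number as a block. These markers of pluripotent and germ cells thus led the libraries of both groups. The miR-302 cluster, which marks the primed pluripotent state, was low in all 4 libraries, at 444 and 332 RPM in mPGCLCs and 389 and 438 RPM in non-PGCLCs, and overlapped between the groups.

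The miR-17-92 cluster and its paralogues, growth-promoting miRNAs abundant in dividing cells, had 22 of 24 tested arms above 0 and a median of 0.66. Over all arms, 311 of 569 were above 0 and the median was 0.131. The miR-17-92 list had no call and 2 arms higher at an unadjusted p under 0.05 (DESeq2 1 higher). For let-7, the family that rises as cells differentiate and that LIN28 blocks in germ cells, 9 of 13 arms were above 0 and the median was 0.42, with no call and 1 higher at an unadjusted p under 0.05 (DESeq2 1 lower). let-7a-5p was at 3883 and 2729 RPM in mPGCLCs against 2327 and 1861 RPM, and the summed family at 10048 and 7991 RPM against 6670 and 5929 RPM. Scaled to miRNA reads, the medians of the miR-17-92 list and of let-7 turned to -0.00 and -0.28, that of the miR-290 list to 0.11, and that of all arms to -0.33.

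The X-linked cluster of germ cell miRNAs, expressed in testis, had the highest median among the 10 clusters and families, 1.71 over 19 tested arms, of which 17 were above 0 (311 of all 569 arms) and 10 were higher in both mPGCLC libraries (24.8% of all arms). None was called by edgeR, and 1 was higher at an unadjusted p under 0.05 and by DESeq2. The sum was 1331 and 935 RPM in mPGCLCs against 422 and 282 RPM in non-PGCLCs. Its leading arms were miR-465c-5p at 228 and 126 RPM against 70.3 and 65.5 RPM, miR-470-5p at 223 and 128 RPM against 92.4 and 15.1 RPM, and miR-465b-5p at 158 and 137 RPM against 62.3 and 53.5 RPM. In each of these both mPGCLC values lay above both non-PGCLC values. The miR-465 genes are near-identical copies, so single copies are uncertain.

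The Sfmbt2 and Hox groups showed no common direction. The Sfmbt2 list (miR-297, miR-466, miR-467 and miR-669 series), known from placenta and stem cells, had 22 arms above and 13 below 0 among 36 tested, with a median of 0.12 that turned to -0.00 with TMM scaling. Its sum was 4509 and 3612 RPM against 3967 and 3412 RPM, with no call, 1 lower at an unadjusted p under 0.05 and 2 higher and 1 lower by DESeq2. Among arms from the Hox clusters, miR-196a-5p was at 198 and 218 RPM in mPGCLCs against 118 and 111 RPM, and miR-10a-5p at 11.8 and 4.23 RPM against 74.7 and 45.0 RPM. Neither passed the edgeR test, and DESeq2 called 1 Hox arm lower.

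**Figure D3:**
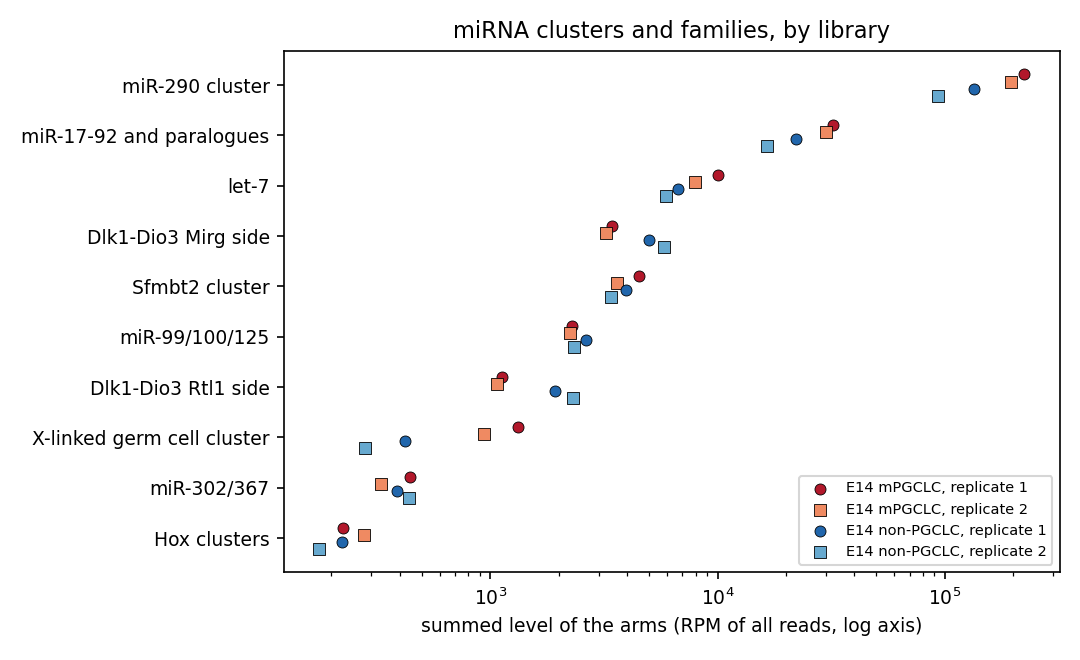
Summed level of the arms of each miRNA cluster or family in each E14 library (RPM, log axis). The miR-290 cluster, the miR-17-92 list, let-7 and the X-linked cluster lie higher in both mPGCLC libraries, both sides of the Dlk1-Dio3 region lie lower, and the Sfmbt2 and miR-302 points overlap.

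Markers of other cell types that an EB can hold were mostly low in both groups. Blood miRNAs summed to 117 and 88.1 RPM in mPGCLCs and 60.5 and 74.5 RPM in non-PGCLCs, and no arm of Mir144 or Mir451a had a read. Endothelial miR-126a-3p was at 42.5 and 53.9 RPM against 12.1 and 33 RPM. The muscle list was at 53.8 and 29 RPM against 50.7 and 6.74 RPM, the endoderm and liver list at 39.8 and 11.4 RPM against 22.1 and 39.9 RPM, and the neural list at 199 and 239 RPM against 286 and 163 RPM, with miR-9-5p leading. The epithelial list was higher in mPGCLCs, at 2207 and 2269 RPM against 1165 and 1257 RPM. It was led by miR-200c-3p at 774 and 925 RPM against 459 and 562 RPM, miR-200b-3p at 814 and 751 RPM against 365 and 453 RPM, and miR-205-5p at 305 and 285 RPM against 51.2 and 124 RPM. No arm of these 6 lists was called by edgeR. At an unadjusted p under 0.05, 2 epithelial and 1 muscle arm were higher, and DESeq2 called 1 blood and 1 muscle arm higher. Which cells of the non-PGCLC group carried the fallen miRNAs was not tested.

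Some of the largest fitted differences rest on near-absence in one group and were not called by edgeR. miR-881-3p, of the X-linked cluster, had 381 and 312 reads in mPGCLCs and none in either non-PGCLC library, so it was at least 288-fold higher against a floor of 3 reads over the non-PGCLC group (edgeR adjusted p = 0.456). The bound was 183-fold without non-PGCLC replicate 1 and 105-fold without replicate 2, since fewer reads raise the floor. miR-17-3p had 31 and 407 reads against none, at least 182-fold higher (edgeR adjusted p = 0.406). That bound rests on mPGCLC replicate 2, with 25.4-fold without it and 343-fold without replicate 1, and was 115-fold and 66.4-fold without non-PGCLC replicates 1 and 2. miR-365-2-5p had 357 and 242 reads against 0 and 1, and miR-1247-5p 236 and 262 against 1 and 0, with ratios of 746 (exact 95% counting interval 133 to 29507) and 620 (111 to 24540). miR-182-3p had 417 and 324 reads against 0 and 11, but 73.6% of its mPGCLC reads were 18 nt long and not the RefSeq arm. In the other direction, the 5p arm shared by 8 miR-466 hairpins in an intron of Sfmbt2 (chromosome 2) had no read in mPGCLCs and 348 and 332 in non-PGCLCs, at least 182-fold lower (edgeR adjusted p = 0.358, 89.8-fold and 92.3-fold without mPGCLC replicates 1 and 2), but only 26.7% of its reads were unique to that arm. DESeq2 called 5 of these 6 arms, all but miR-182-3p.

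Grouped by seed, 5 of 470 tested families fell and none rose with total reads (edgeR quasi-likelihood test, 1.06% called), with 22 higher and 26 lower at an unadjusted p under 0.05 and 19 higher and 26 lower by DESeq2. The 5 were CAGUAGU (miR-199a/b-3p), CAGCAGG (miR-214-3p), AGACGGG (miR-483-5p), CACUCCU (miR-483-3p) and CAAGAGC (miR-335-5p), each of them a seed with a single arm here. Arms were grouped by the seed of their RefSeq form, and most reads summed under CACUCCU were the shifted miR-483-3p form above, whose bases 2 to 8 are ACUCCUC. With TMM scaling 8 were called (1.7%), 2 higher (0.426%) and 6 lower (1.28%). AAUGUUG (miR-409-3p) was added to those that fell. Among those that rose, UCAAGUA (miR-26a-5p and miR-26b-5p) stood at 4332 and 4200.4 RPM against 2155 and 2219 RPM (edgeR adjusted p = 0.0293 with TMM), and CUCAAAC (miR-292a-5p, miR-290a-5p and miR-293-5p) at 170899.6 and 138597 RPM against 99084 and 66243 RPM (edgeR adjusted p = 0.0293 with TMM). Both had an edgeR adjusted p of 0.2 with total reads. AAGUGCU, the seed of miR-294, miR-295 and miR-302 known for promoting proliferation in stem cells, was at 20456 and 19415 RPM against 13427 and 8911 RPM and was not called under either scaling.

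By RNA class, annotated miRNAs took 34.5% and 31.6% of all reads in the mPGCLC libraries and 23.0% and 17.9% in the non-PGCLC libraries, means of 33 ± 2.02% and 20.4 ± 3.65% (SD, n = 2). Counted over distinct sequences, the difference of 12.6 percentage points shrank to 0.609. The groups did not overlap over reads, but 2 against 2 libraries allow no exact permutation p below 0.333, and this was the two-sided p here. miRNAs outside the miR-290 cluster were also higher, at 12.1% and 12.0% against 9.54% and 8.55%. Reads of 15 to 40 nt without a match to the annotation used were lower in mPGCLCs, at 31.9% and 33.3% against 37.5% and 41.7% for lengths of 15 to 17 nt, and at 27.9% and 29.1% against 33.6% and 33.9% for 18 to 40 nt. Reads of 15 to 17 nt could match only small RNA genes, because matching to miRNA hairpins and long transcripts began at 18 nt. That class is therefore one of length rather than of RNA type. Unmatched reads of 43 nt were rarer and lay the other way, at 0.357% and 0.306% against 0.256% and 0.221%, without overlap. No read was longer than 43 nt, so the full length of these RNAs is not known. Since shares sum to a whole, a higher share of one class lowers the others. The non-PGCLC libraries also had more reads of 15 to 19 nt (54.7% and 59.4%, against 46.1% and 48.8%), a measure that moves with RNA breakdown and size selection, and its part in the class shares was not tested.

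Most other classes overlapped between the groups. snoRNA fragments made up 1.58% and 1.36% of mPGCLC reads and 1.38% and 1.57% of non-PGCLC reads. snRNA fragments were at 0.26% and 0.34% against 0.282% and 0.377%, 5S-type rRNA at 0.192% and 0.57% against 0.388% and 0.418%, mitochondrial rRNA at 0.169% and 0.109% against 0.159% and 0.124%, and sense reads of protein-coding transcripts at 1.28% and 1.28% against 1.31% and 1.25%. Y RNA, the RNA partner of Ro60, was at 0.359% and 0.302% in mPGCLCs against 0.384% and 0.374% and did not overlap, and neither did 7SL and 7SK RNA, at 0.0438% and 0.056% against 0.0325% and 0.0388%. Rarer classes without overlap were RNase MRP and P RNA (0.35 times the non-PGCLC mean), vault RNA (0.39 times), pseudogenes (2.71 times) and unclassified miscellaneous RNA (3.44 times).

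**Figure D4:**
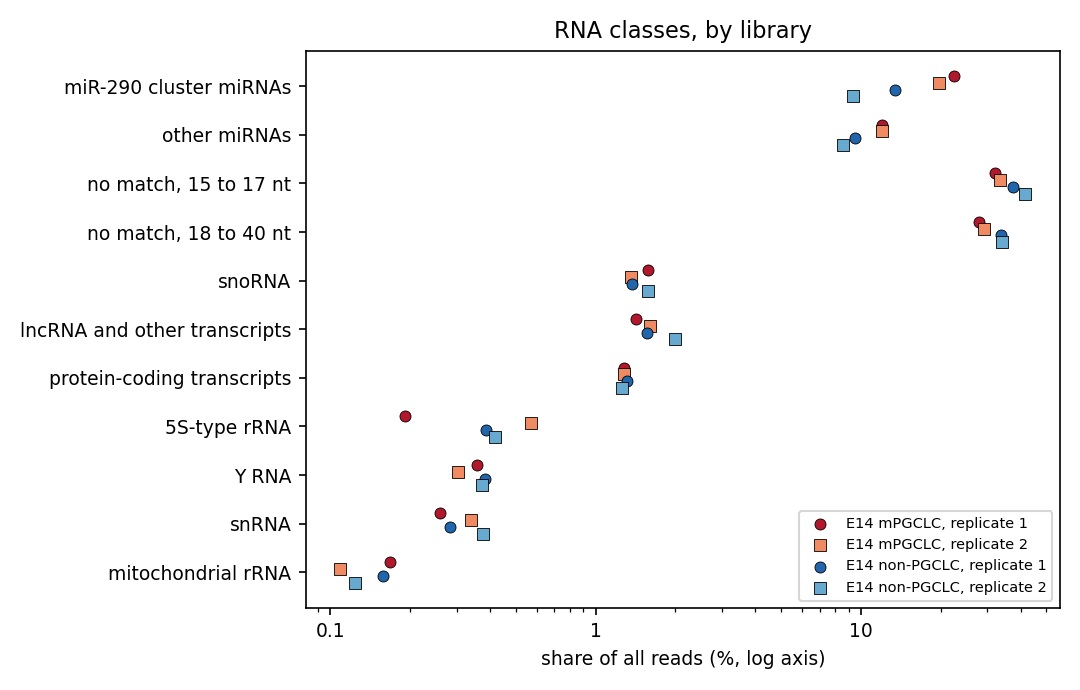
Share of all reads in each RNA class for each E14 library (percent, log axis). miRNAs inside and outside the miR-290 cluster lie higher in both mPGCLC libraries and unmatched reads of 15 to 40 nt lie lower, whereas snoRNA, snRNA, 5S-type and mitochondrial rRNA points of the 2 cell types are mixed.

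Among single small RNA genes other than miRNAs, none of 301 tested was called (edgeR quasi-likelihood test, 0% called). At an unadjusted p under 0.05, 1 was higher and 2 were lower, all snoRNA genes. Gm26457 was the higher one, and Gm23262 (36.3 and 33.4 RPM against 119 and 146 RPM) and AF357428 (3.63 and 0 RPM against 60.5 and 8.68 RPM) were the lower ones, named after their values were seen. DESeq2 called 2 higher, both snoRNA genes: Gm26457 at 2.06 and 30.2 RPM against 0 and 0.0775 RPM, and Gm25877/Gm26387 at 2.9 and 3.48 RPM against 0 and 0 RPM. The median log2 change was 0 over all 301 and 0.00 over 227 snoRNA genes. The most frequent reads of 3 abundant genes with distinct ends are printed to identify the fragments, in lower case because no base is singled out.
Rny1, bases 84 to 110 of 112: uucucacuacugcacuugacuagucuu
Gm23212, a snoRNA gene, bases 1 to 28 of 60: ccugcaugaugacgaacaaauacugacu
mt-Rnr2, bases 1 to 25 of 1582: acuaauccuagcccuagcccuacac

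Reads of the Rny1 gene (chr6:47788069-47788180, minus strand) were at 2901 and 2347 RPM in mPGCLCs against 3053 and 2899 RPM. Gm23212 was at 1330 and 750.3 RPM against 1202 and 668.7 RPM. Reads of mt-Rnr2, the mitochondrial large-subunit rRNA, were at 1249 and 812 RPM against 1193 and 894 RPM. Rnu3b copies of the U3 snoRNA, which guides rRNA processing, were at 2498 and 1928 RPM against 2353 and 1577 RPM. Rn5s with 48 further copies was at 1876 and 5556 RPM against 3631 and 4105 RPM, so its mPGCLC libraries lay on both sides of the non-PGCLC libraries.

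By read length and first base, none of 108 classes was called with total reads in the fit over all lines (edgeR quasi-likelihood test, 0% called), with 6 higher and 7 lower at an unadjusted p under 0.05 and 6 higher by DESeq2. The count depends on the fit, since with the 4 E14 libraries alone 33 classes were called, 11 higher and 22 lower. Reads of 21 nt with a 5′-A, the class of the most frequent miR-292a-5p read, were at 9.17% and 7.62% of reads in mPGCLCs against 5.33% and 3.77% (log2 change 0.88 ± 0.22 SE, edgeR adjusted p = 0.15). Reads of 22 nt with a 5′-A were at 8.99% and 8.29% against 6.2% and 4.57%, and those of 23 nt at 4.38% and 4.4% against 3.14% and 2.59%. DESeq2 called these 3 classes and the 43-nt reads that began with U, A or C. Reads of 43 nt with a 5′-U were at 0.258% and 0.225% against 0.131% and 0.0998% (log2 change 1.07 ± 0.30 SE, adjusted p = 0.153 by edgeR and 0.0103 by DESeq2). Read lengths ran from 15 to 40 nt and were then followed only by 43 nt, the longest. Whether 43 nt is the full length of these RNAs is therefore not known. The one class called with TMM scaling was 27 nt with a 5′-U, a length and first base found among fetal piRNAs, which was lower in mPGCLCs, at 0.26% and 0.274% against 0.348% and 0.525% (edgeR adjusted p = 0.0359 with TMM and 0.363 with total reads). A single 27-nt read of 74.1% GC content without an annotated match stood at 389 and 520 RPM in mPGCLCs against 985 and 2288 RPM in non-PGCLCs. Without this read and those that share its first 20 bases, the class was at 0.218% and 0.219% against 0.232% and 0.279%.

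Non-templated 3′ ends, bases added to a miRNA after cutting, were found on 17.4% and 17.7% of miRNA reads in mPGCLCs and on 18.1% and 17.8% in non-PGCLCs, means of 17.5 ± 0.183% and 17.95 ± 0.262% (SD, n = 2; exact permutation p = 0.333). The difference of -0.43 percentage points was without overlap between the groups, but turned to 1.11 when each distinct sequence was counted once. Added A alone was on 10.95% and 11.03% against 11.5% and 11.4%, and added U alone on 4.62% and 4.75% against 4.66% and 4.5%. Outside the miR-290 cluster, the shares with any added end overlapped, at 16.3% and 16.03% against 16.6% and 16.2%.

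Whether the E14 difference was like that of BG5 was tested with an interaction term in the same fit. Both lines were sorted on Ssea1, but on a different other marker, so line and gate cannot be told apart. Of the 13 arms that fell in E14, 12 were also called lower in BG5 with total reads (6.68% of all arms called lower there, 4.92% higher) and 11 with TMM (5.45% lower, 8.79% higher). The difference between lines was called for 31 of 569 arms with total reads (5.45%), 17 more positive in E14 (2.99%) and 14 more negative (2.46%), and for 32 with TMM (5.62%), 10 more positive (1.76%) and 22 more negative (3.87%). It was called for 3 of the 16 called E14 arms with total reads (miR-335-3p, miR-26b-5p, miR-30a-5p) and 1 with TMM (miR-30a-5p). miR-199a/b-3p, with a log2 change of -6.11 ± 0.47 in E14, had -7.21 ± 0.49 SE in BG5, and the difference was not called (edgeR adjusted p = 0.342). Its levels nevertheless differed between the lines, since BG5 non-PGCLCs held 13281 and 7569 RPM and BG5 mPGCLCs 49.2 and 91.9 RPM.

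For the 6 most abundant miR-290 arms the log2 change in E14 was smaller than in BG5 by 1.75 to 2.48, and each difference was called under both scalings. miR-292a-5p changed by 0.90 ± 0.31 SE in E14 and by 2.82 ± 0.33 SE in BG5 (difference -1.92, edgeR adjusted p = 0.00951). Summed levels of the cluster in BG5 were 71192 and 48478 RPM in mPGCLCs and 7803 and 9058 RPM in non-PGCLCs, so E14 non-PGCLCs, at 134789 and 93158 RPM, held more miR-290 than the mPGCLCs of BG5. The miR-302 cluster, at 332 to 444 RPM over the 4 E14 libraries, was at 5088 and 4880 RPM in BG5 mPGCLCs and at 396 and 354 RPM in BG5 non-PGCLCs. The share of undifferentiated or germ cells in the E14 non-PGCLC group was not measured here, and its part in the smaller E14 difference was not tested.

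**Figure D5:**
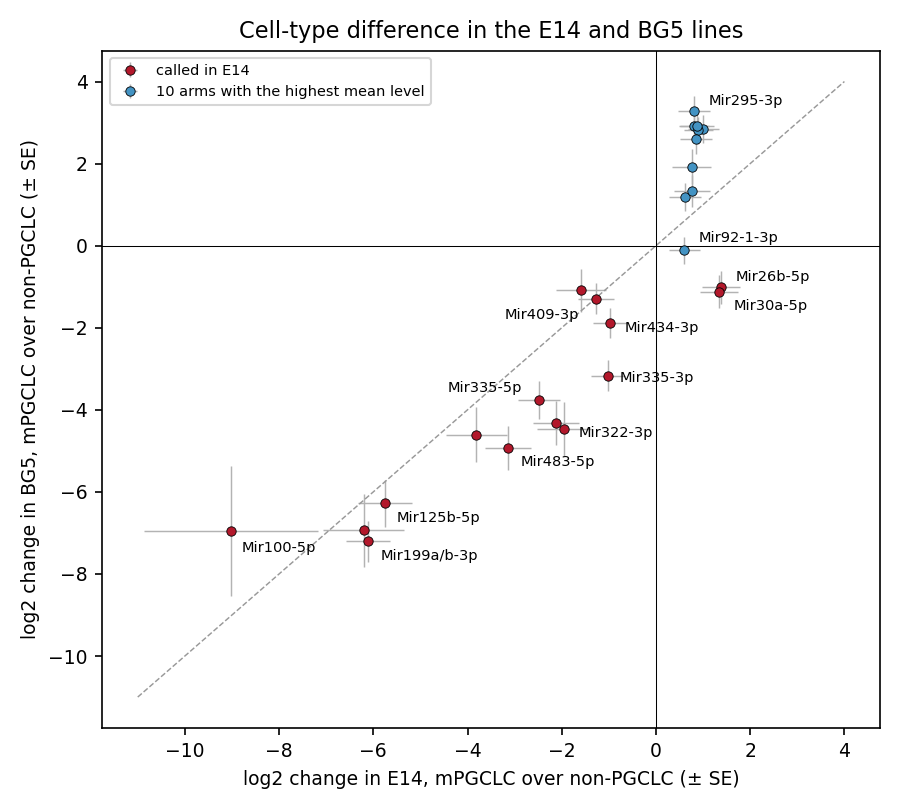
Log2 change between mPGCLCs and non-PGCLCs in BG5 against that in E14, with standard errors, for 15 of the 16 arms called in E14 (red, miR-758-3p left out) and the 10 most abundant arms (blue). The dashed line marks equal change. All 13 arms that fell in E14 lie below 0 in both lines, the miR-290 arms lie above it at 0.8 to 1.0 in E14, and miR-26b-5p and miR-30a-5p lie on opposite sides of 0 in the lines.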

How the data were processed

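The deposited files hold raw counts: each lists the distinct read sequences of 1 library with their number of reads. According to the labels and methods, the authors built libraries with the NextFlex Small RNA kit for low input, sequenced them on 2 instrument types with read files merged per library, removed adapters (cutadapt 3.2) and random bases, and aligned what was 15 nt or longer to GRCm38 (STAR 2.5.3a). The random bases were not used to remove PCR copies. Here, reads of 18 to 26 nt were assigned to miRNA arms by sense match to 1174 hairpins of GENCODE vM21 (first 18 nt exact, up to 2 later mismatches). Other reads were assigned to 3903 small RNA genes (15 to 40 nt, exact) and then to long transcripts (18 nt or longer, exact). Cytoplasmic tRNA, 45S rRNA and transposon annotations were not used here. Of 569 tested arms, 476 matched a RefSeq mature miRNA, and arms sharing most of their reads were merged.

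Counts were tested with the edgeR 4.0.16 quasi-likelihood test (R 4.3.3) over all 10 libraries with 5 group means, filterByExpr, all reads as library size and Benjamini-Hochberg adjustment, threshold 0.05. The other lines thereby share in the filter, the TMM scaling and the estimate of spread. The code was tested on simulated data. Alternatives were TMM, DESeq2 1.42.0, other library sizes, filters and matching rules, only the E14 libraries, leaving out each library and the replicate number as a block. Shares were compared by exact permutation tests over 6 arrangements. Arms are named if called with either scaling, if among the 10 with the highest mean, or if among the 5 largest rises or falls without overlap at 20 RPM or more; list examples are the most abundant arms, and miR-125a, miR-99b and miR-26a are shown for their seeds. Members, lists and tests were chosen with earlier results of these data known. The leave-one-out and block fits with TMM, the crossed block and the 27-nt read were added after seeing the data.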

Additional observations from a re-analysis of the deposited data

Results flagged for a closer look

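For 10 named arms, the change between mPGCLCs and non-PGCLCs differed between E14 and BG5 by the interaction test with total-read scaling (edgeR adjusted p under 0.05). The difference, E14 minus BG5 on the log2 scale, was -1.92 for Mir292-5p, -2.11 for Mir292-3p, -1.84 for Mir290a-5p, -1.75 for Mir293-3p, -2.04 for Mir294-3p and -2.48 for Mir295-3p. All 6 of these were also called with TMM scaling. It was 2.14 for Mir335-3p, 2.40 for Mir26b-5p and 2.46 for Mir30a-5p. With TMM scaling the edgeR adjusted p was 0.0531 for Mir335-3p, 0.0531 for Mir26b-5p and 0.0249 for Mir30a-5p. For Mir1247-5p the fitted difference was 18.05, which depends on the prior count and is no bound: it had 28.5 and 32.6 RPM in E14 mPGCLCs against 0.135 and 0 RPM, and 0 and 0.0978 RPM in BG5 mPGCLCs against 71.7 and 10.5 RPM (edgeR adjusted p = 0.0372 with total reads and 0.0575 with TMM). With 2 libraries a group, no test for single outlying samples was made.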

How the results depend on the processing

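The number of calls depended on the fit. Of arms, where total-read scaling called 8, TMM called 16, DESeq2 58, no low-count filter 18 (4 higher, 14 lower), the replicate block 35 (15 higher, 20 lower), only the 4 E14 libraries 4, miRNA reads as library size 25 (1 higher, 24 lower), TMM without the miR-290 cluster 12 (1 higher, 11 lower) and TMM with the block 29 (7 higher, 22 lower). The block called 7 of the 10 most abundant arms, where total reads called 0. Leaving out 1 library gave 6 to 9 calls, and 6 to 12 with TMM. With total reads, Mir100-5p was lost without either non-PGCLC library and Mir351-5p without any one library. Of the 8 arms that TMM added, none kept its call in more than 1 such TMM fit. Mir182-5p (-0.066) and Mir92-1-3p (-0.080) reversed with miRNA reads as library size.

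Of seed families, where 5 were called, TMM called 8, DESeq2 45, no filter 12, the block 33, only E14 3, exact hairpin matches 10 and miRNA reads 26, with 5 to 10 when 1 library was left out (10 without mPGCLC replicate 2). Of other small RNA genes, DESeq2 called 2 in place of 0, and leaving out a library gave 0 to 0. Of length classes, TMM called 1, DESeq2 6, the block 4 and only E14 33 (11 higher, 22 lower) in place of 0, and leaving out a library gave 0 to 0. The difference between lines had 31 calls, 77 with DESeq2, 50 with the block, and 17 to 40 when 1 library was left out: 17 without E14 non-PGCLC replicate 1, 18 without mPGCLC replicate 2, and 19 without either other E14 library. The cause of these shifts was not tested.

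The miRNA share was 12.6 percentage points higher in mPGCLCs (10.01 to 15.2 without 1 library), but 0.609 points with each distinct sequence counted once. The share of non-templated ends differed by -0.43 points (-0.618 to -0.247 without 1 library) and by 1.11 with distinct sequences. Of 12 RNA classes (snoRNA, snRNA, Y RNA, 7SL and 7SK, 5S-type and mitochondrial rRNA, mitochondrial tRNA, protein-coding, lncRNA and other, and 3 lengths of unmatched reads), 5 did not overlap between groups (Y RNA, 7SL and 7SK, and the unmatched reads), 11 with distinct sequences and 6 to 11 without 1 library.

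Same-numbered E14 libraries deviated together over length classes (r = 0.48) but not over arms (r = -0.06), and those of BG5 did in neither (-0.40 and 0.04), so the numbers were not taken to pair samples in the main fit. Whether same-numbered E14 libraries came from the same EBs is not known. In the paired analysis, the replicate block gave the counts above and left both share differences as they were (12.6 and -0.43; exact sign-flip permutation p = 0.5, the smallest 2 pairs allow). With the BG5 numbers crossed, 0 length classes were called.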
